A study of Mus musculus with 2 samples.

Results

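The 36 genes described here are the fibroblast growth factor genes of the mouse and genes listed with them as feedback targets of Fgf signals. The latter are called feedback genes here as a group, whether or not each is switched on by Fgf signals or dampens them. They were taken from a list of 22 Fgf genes, 4 Sprouty genes, 3 Spred genes, Dusp6, the Ets factors Etv1, Etv4 and Etv5, and Flrt1, Flrt2 and Flrt3, matched by GENCODE symbol. Of these, 35 were measured, among 43346 gene rows, and Spry3 was not analysed here. The RNA came from the facial prominences of mouse embryos 13.5 days old, the swellings of the head that form the jaws, nose and palate. The embryos carried the strain label B6NCrl, were of mixed sex and pooled, and were labelled healthy, with no treatment or allele named. There were 2 libraries, numbered as biological replicates 1 and 2 of 1 group, from separate biosamples that carry the same donor identifier. Differences between them hold both the biosample and the making of the library. With 1 group there was no contrast to test, and no p-value is given. In whole tissue, fewer cells of a type and less RNA per cell cannot be told apart.

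Most Fgf proteins are secreted and bind receptor tyrosine kinases together with heparan sulfate, which starts the Ras-ERK kinase cascade. Epithelial and mesenchymal cells exchange different Fgfs in this way while the face grows. Cells that receive the signal raise the Ets factors Etv1, Etv4 and Etv5, and also Sprouty, Spred and Dusp6 proteins, which dampen ERK signalling.

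Replicate 1 held 30451502 expected counts (estimated reads) and replicate 2 held 23777465. A gene with no reads could still stand at up to 0.105 CPM (counts scaled to a total of 1000000) in replicate 1 and up to 0.132 CPM in replicate 2, for counting error only, since 3 counts is the limit that a count of 0 allows. The 35 genes took 0.0731% and 0.0813% of the counts on gene rows. Levels are given in TPM, which is corrected for transcript length and scaled to a total of 1000000. All 6 markers of neural crest mesenchyme were detected, with at least 1 TPM in each library, led by Msx1 and with a summed level of 1025 TPM in each library. The 7 markers of surface and oral epithelium were detected too, led by Krt14, at 1303 and 1257 TPM. Of the marker lists, those of liver and heart differed most in sum between the libraries. The sum of 8 liver genes, led by Trf, was 15.6 TPM in replicate 1 and 360.9 in replicate 2, with all 8 higher in replicate 2 and Fgb at 0 in replicate 1. The sum of 7 heart genes, led by Tnni3, was 7.67 and 34.7 TPM, with 6 higher in replicate 2. The sum of 8 neuronal genes, led by Gap43, was 190.9 and 235.1 TPM, with 7 higher in replicate 2. The 6 skeletal muscle genes, led by Actc1, summed to 142.2 and 185.6 TPM, but only 1 of them was higher in replicate 2. None of the 5 limb and trunk genes was detected, and 1 of 4 placental and extraembryonic genes was.

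The feedback genes were all present and the Fgf genes were mostly low. A gene counted as detected where each library gave it at least 1 TPM. By this rule 22 of the 35 genes were detected (62.9%), beside 60.9% of all 21474 protein-coding genes and 34.4% of all gene rows. The 2 groups stood on either side of that background: 13 of 13 feedback genes were detected and 9 of 22 Fgf genes. The median level was 10.1 TPM over the feedback genes and 0.938 over the Fgf genes, against 4.68 over all protein-coding genes and 18.9 over the detected ones. Summed, the feedback genes held 246.1 TPM in replicate 1 and 281.6 in replicate 2. The Fgf genes held 57.1 and 60.7 TPM, so the feedback sum was 4.31 and 4.64 times theirs. Within the feedback sum, the 3 Flrt genes held 93.8 and 103.4 TPM and the 3 Ets factors 41.1 and 41.8. Of the 17 genes with at least 5 TPM in each library, 12 were feedback genes and the other 5 were Fgf13, Fgf18, Fgf10, Fgf9 and Fgf7. The share of all protein-coding genes with at least 5 TPM in each library was not computed.

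**Figure D1:**
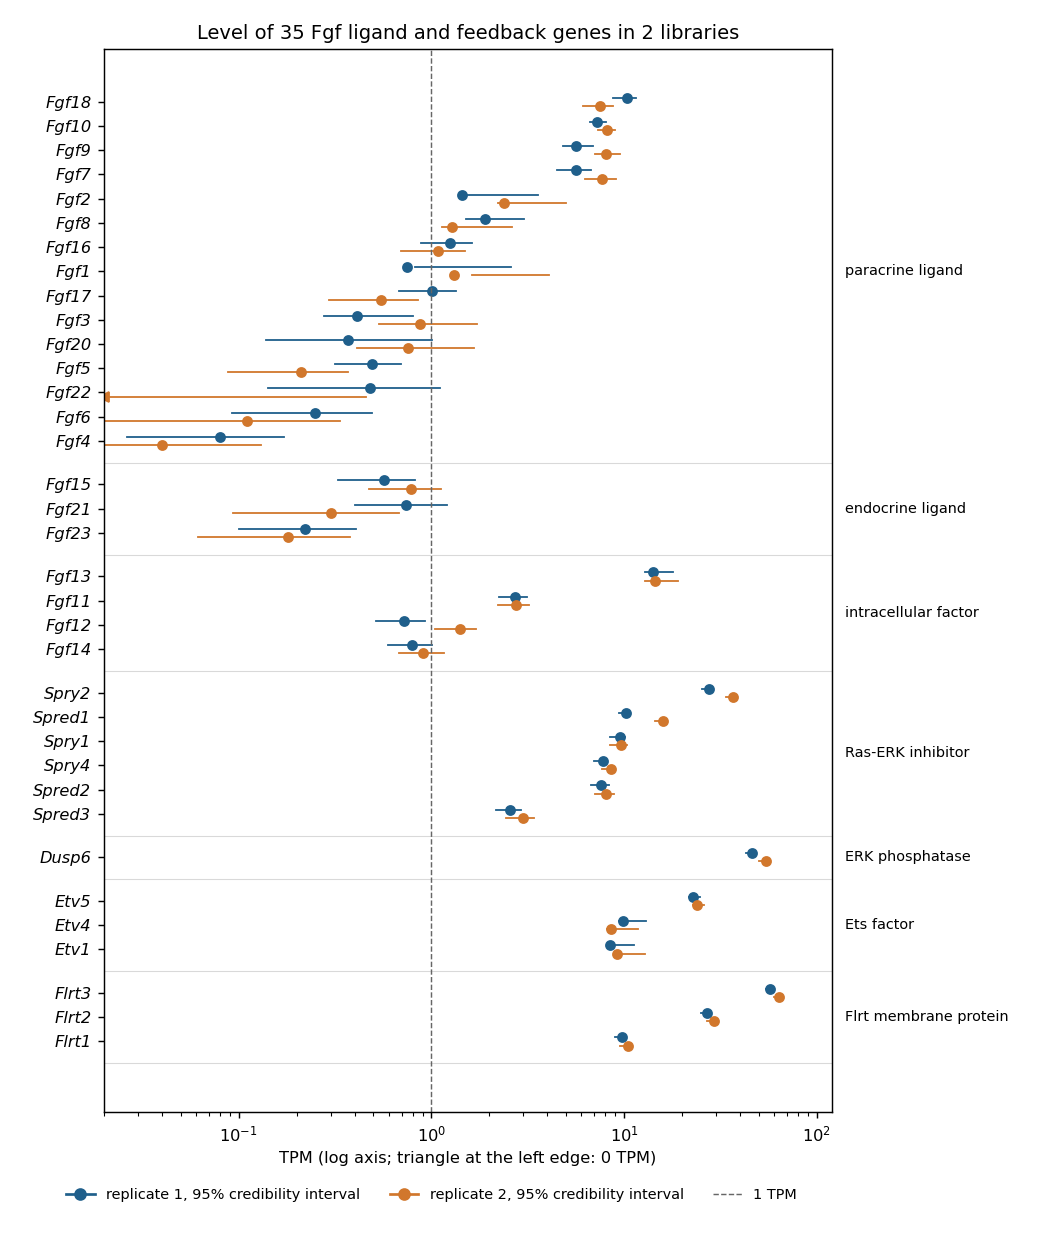
TPM of each of the 35 genes on a log axis, by role, with 1 point per library and bars for the deposited 95% credibility interval; the dashed line marks 1 TPM. All 13 feedback genes lie to the right of the line in both libraries, while 13 of the 22 Fgf genes do not.

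Among the 15 paracrine ligands, those secreted to act on nearby cells or counted with them, 7 were detected and 8 were not. Their summed level was 37.3 TPM in replicate 1 and 40.0 in replicate 2, with a median of 1.03 TPM. Fgf18, a ligand of bone and palate growth (chr11:33117430-33147400, minus strand, GRCm38), was the highest of them, at 10.3 TPM in replicate 1 and 7.54 in replicate 2 (8.93 ± 1.97, SD, n = 2). It rested on 209 and 120 expected counts. Its close relative Fgf8, the signal of early facial and pharyngeal epithelium (chr19:45736798-45742915, minus strand), was at 1.89 and 1.28 TPM on 35 and 20 counts. The other relative, Fgf17, stood at 1.01 and 0.55 TPM on 34 and 14 counts, at the threshold in 1 library and under it in the other. All 3 were higher in replicate 1, and Fgf18 made up 79.1% of their summed mean level.

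Fgf10 and Fgf7 both signal from mesenchyme to epithelium through the b isoform of Fgfr2. Fgf10, needed for limb buds, lungs and palate (chr13:118669791-118792115, plus strand), was at 7.25 and 8.11 TPM (7.68 ± 0.61, SD, n = 2) on 607 and 525 counts. Fgf7, the keratinocyte growth factor (chr2:126034658-126091185, plus strand), was at 5.65 and 7.70 TPM (6.68 ± 1.45, SD, n = 2) on 164 and 231 counts. As whole genes these were nearly equal levels, and their credibility intervals overlapped in both libraries. Of the Fgf7 level, however, 63.7% in replicate 1 and 35.2% in replicate 2 was Fgf7-203, a transcript annotated without a coding sequence. The coding transcript Fgf10-201 held 98.3% and 100% of the Fgf10 level. The other members of the subfamily of Fgf10 and Fgf7 were far lower. Fgf3, known from inner ear and tooth, was at 0.41 and 0.87 TPM, and Fgf22, known as an organiser of synapses, at 0.48 TPM on 4 counts in replicate 1 and at 0 in replicate 2.

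Fgf9, an epithelial signal to mesenchyme in lung and other organs (chr14:58070547-58112720, plus strand), was at 5.62 and 8.08 TPM (6.85 ± 1.74, SD, n = 2) on 212 and 255 counts. It carried 79.8% of the level of its subfamily. Fgf16, known from the embryonic heart, was detected near the threshold, at 1.25 and 1.08 TPM on 41 and 27 counts. Fgf20, known from hair placodes and the cochlea, was at 0.37 and 0.76 TPM on 6.64 and 13.5 counts.

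Fgf2 and Fgf1 lack the usual signal peptide and leave cells by another route. Fgf2 was at 1.45 and 2.37 TPM, on only 21.3 and 25.0 counts. The posterior mean, the other estimate that the authors deposited, put it at 2.51 and 3.54 TPM. Fgf1 was at 0.75 and 1.31 TPM on 42 and 81 counts, under the threshold in replicate 1. For Fgf1 the deposited TPM lay below its own credibility interval in both libraries, 0.821 to 2.59 TPM in replicate 1 and 1.63 to 4.09 in replicate 2. By the posterior mean Fgf1 stood at 1.66 and 2.77 TPM and would count as detected. Its place at the threshold is therefore set by the choice of estimate.

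The Fgf4 subfamily had the lowest summed level of the Fgf subfamilies, at 0.82 and 0.36 TPM. Fgf5, a regulator of the hair cycle, was at 0.49 and 0.21 TPM on 25 and 8 counts. Fgf6, known from skeletal muscle, was at 0.25 and 0.11 TPM, and Fgf4, known from the early embryo and the limb ridge, at 0.08 and 0.04. Each of the 3 was under 1 TPM in both libraries.

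None of the 3 endocrine Fgfs, which act through the blood with Klotho co-receptors, was detected. Fgf15, a signal of bile acids in the gut, was at 0.57 and 0.78 TPM on 20.6 and 21.5 counts. Fgf21, a hormone of the liver, was at 0.74 and 0.30 TPM on 13 and 4 counts. Fgf23, the phosphate hormone of bone, was at 0.22 and 0.18 TPM on 8 and 5 counts.

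The highest Fgf gene of all was one that is not secreted. Fgf11, Fgf12, Fgf13 and Fgf14 form a subfamily that stays inside cells and is best known for binding voltage-gated sodium channels. Fgf13, which also binds microtubules (chrX:59062145-59568071, minus strand), was at 14.1 and 14.4 TPM (14.3 ± 0.20, SD, n = 2) on 501 and 378 counts. It made up 75.4% of the level of its subfamily. Fgf11 was at 2.72 and 2.76 TPM on 154 and 122 counts, also nearly equal in the 2 libraries. Fgf12 was at 0.72 TPM in replicate 1 and 1.40 in replicate 2, on 45 and 67 counts. Fgf14, a gene of cerebellar ataxia, was at 0.79 and 0.90 TPM on 58 and 51 counts.

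Fgf13 is read from several starts, and each gives the protein another beginning. The coding starts of 3 of its transcripts are shown because Fgf13-201 and Fgf13-202 took turns as the leading transcript of the gene. Lower case marks the bases of each start up to the junction and capitals mark the first 30 bases that all 3 share, read 5′ to 3′ from GENCODE M21 on GRCm38.
Fgf13-201: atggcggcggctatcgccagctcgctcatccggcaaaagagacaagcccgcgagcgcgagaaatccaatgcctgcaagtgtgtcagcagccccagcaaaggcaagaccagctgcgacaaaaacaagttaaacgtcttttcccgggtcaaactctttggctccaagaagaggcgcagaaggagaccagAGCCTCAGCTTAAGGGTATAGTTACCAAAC
Fgf13-202: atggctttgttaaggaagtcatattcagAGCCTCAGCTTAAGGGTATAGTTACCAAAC
Fgf13-203: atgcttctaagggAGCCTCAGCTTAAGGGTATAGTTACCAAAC

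The start of Fgf13-201 has 187 bases of its own (chrX:59133877-59134063), that of Fgf13-202 has 28 (chrX:59166013-59166040) and that of Fgf13-203 has 13. Of those 13, the first coding exon of Fgf13-203 holds 12 (chrX:59567140-59567151). The whole coding sequences are 245, 192 and 187 codons long. Fgf13-201 held 26.6% of the gene's TPM in replicate 1 and 40.0% in replicate 2. Fgf13-202 held 30.7% and 16.5%, and Fgf13-203 14.4% and 8.90%. The short coding transcripts Fgf13-206 (14.3% and 13.4%) and Fgf13-205 (9.99% and 13.3%) held shares of like size. In replicate 1 the intervals of Fgf13-201 (2.64 to 4.75 TPM) and Fgf13-202 (2.14 to 6.43 TPM) overlapped. In replicate 2 they did not, at 4.31 to 6.88 and 0.000619 to 3.69 TPM.

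The stretches just upstream of the 2 leading starts differ in composition. The 100 bases before each GENCODE start are shown from RefSeq promoter windows of GRCm38.p6, on the strand of the gene, with GC boxes (GGGCGG on either strand) in capitals.
Fgf13-201 promoter: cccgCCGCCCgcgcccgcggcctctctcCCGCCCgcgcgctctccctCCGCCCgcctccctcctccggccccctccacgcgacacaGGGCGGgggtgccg
Fgf13-202 promoter: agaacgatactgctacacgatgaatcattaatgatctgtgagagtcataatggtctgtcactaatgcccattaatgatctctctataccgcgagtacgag

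These stretches lie at chrX:59134437-59134536 and chrX:59166165-59166264. In the 250 bases before the RefSeq start, which is 0 bases from the GENCODE start of Fgf13-201 and 76 from that of Fgf13-202, GC content was 74.4% and 40.4%. The median of all 32851 windows was 52.4%. The first window held 4 GC boxes and 31 CpG dinucleotides, the other none and 6. Fgf13 also had windows 723 and 17501 bases from the GENCODE start of Fgf13-203. The nearer one had 74.8% GC, 33 CpG dinucleotides and 3 GC boxes, close to that of Fgf13-201. The farther one had 45.6% GC, 2 CpG dinucleotides and 0 GC boxes. Over the 34 windows that matched 26 of the 36 genes, a GC box was in 19 (55.9%), against 32.7% of all windows. CCAAT was in 10 (29.4% against 33.8%) and TATAAA in 2 (5.88% against 12.4%), those of Etv1 and Fgf21. The Ets-type motifs CCGGAAGT and CAGGAAGT, which cannot match at the same position, were in none of the 34, against 2.88% and 2.69% of all windows. All motifs were searched on both strands in the same 250 bases, and a match is a run of letters, not a site.

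The inhibitors of Ras-ERK signalling were each detected, and Spry2 stood above the rest. Sprouty proteins are made in response to receptor tyrosine kinases and block the path to ERK. Spry2 (chr14:105891947-105896819, minus strand) was at 27.6 TPM in replicate 1 and 36.9 in replicate 2 (32.3 ± 6.62, SD, n = 2) on 1158 and 1183 counts. Spry1, known from kidney branching (chr3:37639947-37644598, plus strand), was at 9.49 and 9.69 TPM on 477 and 374 counts. Spry4 was at 7.75 and 8.58 TPM on 736 and 621 counts. Spry2 was higher than both in each library, with no overlap of intervals, and made up 64.5% of the Sprouty level.

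Spred proteins are relatives of the Sproutys that bring the Ras inhibitor neurofibromin to the membrane. Spred1, the gene of Legius syndrome (chr2:117121374-117182279, plus strand), was at 10.2 TPM in replicate 1 and 15.9 in replicate 2 (13.1 ± 3.99, SD, n = 2) on 1234 and 1419 counts. Spred2 (chr11:19924375-20024026, plus strand) was at 7.61 and 8.08 TPM on 553 and 446 counts. Spred3 was the lowest of the feedback genes, at 2.57 and 2.98 TPM on 181 and 156 counts.

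Dusp6, the cytoplasmic phosphatase that inactivates ERK itself (chr10:99263231-99267489, plus strand), was at 45.9 and 54.3 TPM (50.1 ± 5.89, SD, n = 2) on 2621 and 2361 counts. Only Flrt3 was higher among the 35 genes. Of all protein-coding genes, 85.7% had a lower mean level than Dusp6.

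The Ets factors Etv1, Etv4 and Etv5 bind DNA and are switched on by Fgf signals in many embryonic tissues. Etv5 (chr16:22381309-22439719, minus strand) was at 22.8 and 24.0 TPM (23.4 ± 0.86, SD, n = 2) on 1865 and 1498 counts. Etv4 was at 9.90 and 8.57 TPM on 343 and 234 counts, and Etv1 at 8.48 and 9.23 on 530.1 and 503.8. Etv5 was the highest in both libraries, and the order of Etv4 and Etv1 turned from one to the other. The summed level of the 3 was 41.1 and 41.8 TPM.

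The Flrt genes code for membrane proteins with leucine-rich repeats that bind Fgf receptors and also the guidance receptors of the Unc5 family. Flrt3 (chr2:140650914-140671469, minus strand) was the highest of the 35 genes, at 57.2 and 63.7 TPM (60.4 ± 4.56, SD, n = 2) on 4542 and 3908 counts. Flrt2 (chr12:95692226-95785215, plus strand) was at 26.8 and 29.3 TPM on 3208 and 2796 counts. Flrt1 (chr19:7092001-7105729, minus strand) was at 9.77 and 10.5 TPM on 1190 and 976 counts. The order Flrt3, Flrt2, Flrt1 was the same in both libraries with no overlap of intervals. Together they held 93.8 and 103.4 TPM, the largest sum of the 7 roles. Flrt3 lies within Macrod2 and Flrt1 within Macrod1, both on the opposite strand. Macrod2 was at 33.6 and 31.3 TPM and Macrod1 at 6.72 and 5.22.

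In the order of mean levels from Flrt3 down to Fgf4, 6 of 34 neighbours were apart, meaning that their 95% credibility intervals overlapped in neither library and the order was the same in both. These were Flrt3 above Dusp6, Dusp6 above Spry2, Flrt2 above Etv5, Etv5 above Fgf13, Etv1 above Spry4, and Fgf7 above Spred3. The other 28 were not apart. The 4 most abundant paracrine ligands, Fgf18, Fgf10, Fgf9 and Fgf7, fell within a run of genes from Fgf13 to Fgf7 that had only the Etv1 and Spry4 step in it. Below Spred3 no step was resolved.

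Within subfamilies most relatives could be told apart by level. Of 29 pairs of relatives with at least 1 detected gene, 24 were apart by the same rule. Over all 37 pairs, with those of undetected genes, the number apart was also 24. The log2 ratio of TPM (1 is a 2-fold difference in level within a library) was steady between libraries for several. Flrt3 to Flrt2 was 1.11 ± 0.02 (SD, n = 2), Flrt2 to Flrt1 1.47 ± 0.01, and Etv5 to Etv1 1.40 ± 0.03. Fgf13 to Fgf11 was 2.38 ± 0.01 and Fgf18 to Fgf8 was 2.50 ± 0.08. The gap between those relatives thus moved little between replicates. It moved more for Spry2 to Spry1 (1.73 ± 0.28), Fgf9 to Fgf16 (2.54 ± 0.52), Fgf10 to Fgf3 (3.68 ± 0.65) and Fgf13 to Fgf12 (3.83 ± 0.66). Fgf11 to Fgf12 (1.45 ± 0.66) and Spred1 to Spred2 (0.70 ± 0.39) were apart by their intervals, but their ratios were not over 3 SD.

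The 5 pairs with a detected gene that were not apart were Fgf2 and Fgf1, Fgf10 and Fgf7, Fgf16 and Fgf20, Spry1 and Spry4, and Etv4 and Etv1. Fgf10 to Fgf7 was 0.22 ± 0.20 on the log2 scale and Spry1 to Spry4 was 0.23 ± 0.08. For Etv4 to Etv1 the ratio was 0.22 in replicate 1 and -0.11 in replicate 2.

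**Figure D2:**
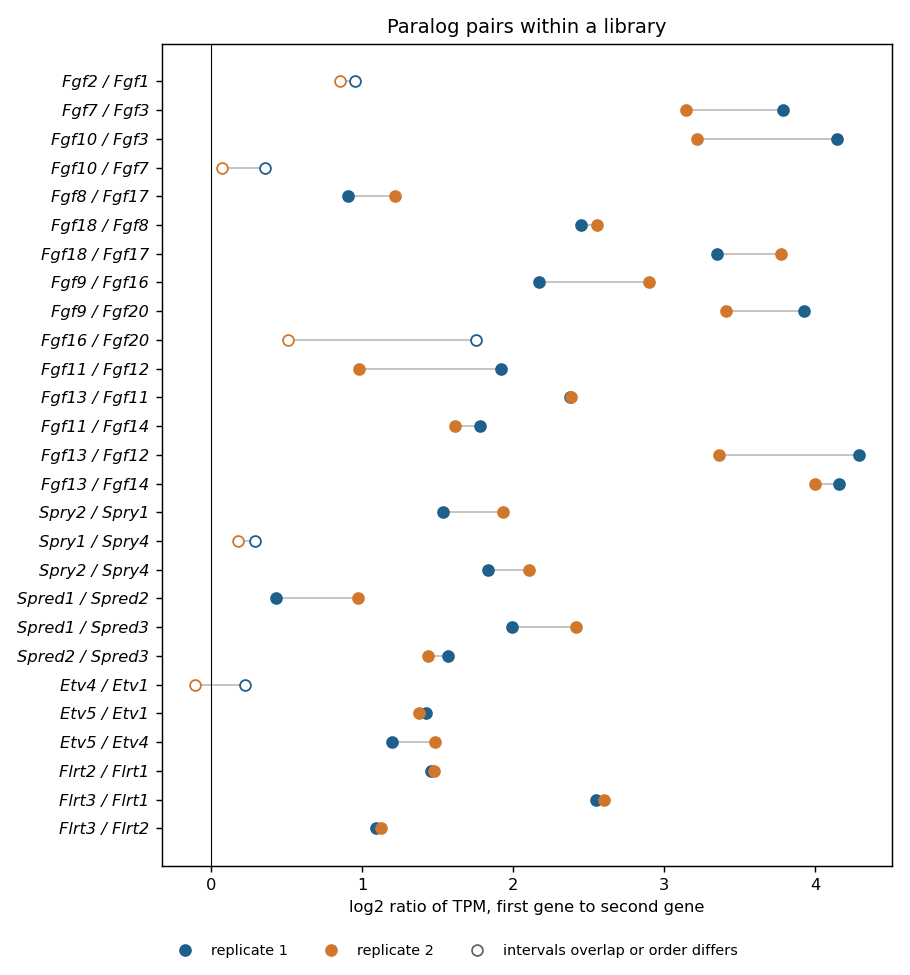
The log2 ratio of TPM of 27 pairs of relatives with at least 1 detected gene, first gene to second gene, in each library; the 2 pairs with Fgf22 are left out because it was at 0 in replicate 2. Filled points are the pairs whose intervals did not overlap in either library, and open points the other 5, of which Etv4 to Etv1 crosses 0.

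Between the 2 libraries most of these genes differed little. The ratio of replicate 2 to replicate 1 was taken on expected counts with TMM scaling of the library sizes, for genes with a mean count of 100 or more. Of the 19 genes with that count, 12 were higher in replicate 2 and 7 in replicate 1. The median absolute log2 ratio was 0.09 over the 19 and 0.11 over all 12730 genes with that count. The exact 95% interval of the ratio (Clopper-Pearson) left out equality for 10 of the 19 (52.6%), against 44.2% of all genes with that count, and held it for the other 9. Those intervals cover counting error only. Over all genes with that count the chi-square per gene was 16.8, where 1 is sampling noise, so the libraries were no duplicates of each other.

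Fgf7 was the only one of the 19 past 1.5-fold (5.26%), against 3.18% of all genes with that count. It was 1.72-fold higher in replicate 2 (counting interval 1.41 to 2.12), a direction shared by 2.4% of all genes, while 0.786% were past the fold in the other direction. On the TPM scale its log2 ratio was 0.44, against 0.78 on counts. Fgf9 was 1.47-fold higher in replicate 2 (1.22 to 1.77), Spred1 1.41-fold (1.30 to 1.52) and Spry2 1.25-fold (1.15 to 1.36). Fgf18 went the other way, 1.42-fold higher in replicate 1 (1.13 to 1.80). With TPM and a pseudocount of 0.1 in place of counts, Spred1 was the gene past 1.5-fold (log2 ratio 0.63) and Fgf7 was not.

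Of the 16 genes below that count, 4 had a counting interval that left out equality. The share over all genes below that count was not computed, so these 4 cannot be set against a background. Fgf1 was 2.33-fold higher in replicate 2 (1.61 to 3.51) and Fgf12 1.80-fold (1.23 to 2.72). Fgf17 was 1.92-fold higher in replicate 1 (1.04 to 4.00) and Fgf5 2.40-fold (1.12 to 6.55). The other 12 included genes with nearly equal counts, such as Fgf14 at 1.07-fold (0.724 to 1.60). The summed liver, heart and neuronal markers given above were 23.2-fold, 4.52-fold and 1.23-fold higher in replicate 2, as were Fgf7, Fgf9, Spred1, Spry2, Fgf1 and Fgf12. The 6 forebrain and olfactory genes, led by Emx2, were all higher there as well, at 33.1 TPM summed in replicate 1 and 45.6 in replicate 2. The 4 blood genes, led by Hbb-y, were 1.27-fold higher there in sum. The 5 cartilage and bone genes, led by Col2a1, summed to 577.5 and 534.5 TPM, and of them Ibsp (1.71-fold) and Sp7 (1.42-fold) were higher in replicate 1, as was Fgf18, while the other 3 had higher TPM in replicate 2. The part of these tissues in the ratios was not tested.

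**Figure D3:**
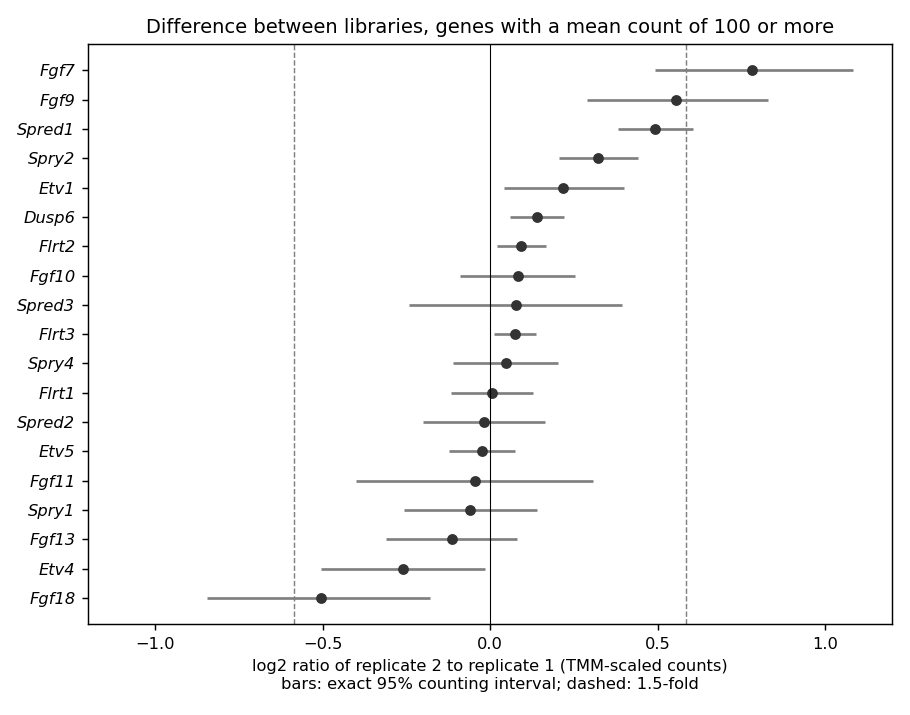
The log2 ratio of replicate 2 to replicate 1 on TMM-scaled counts for the 19 genes with a mean count of 100 or more, with exact 95% counting intervals; dashed lines mark 1.5-fold. Fgf7 at 0.78 is the only point outside the dashed lines, and Fgf18 at -0.51 is the lowest.

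Most of the detected genes have several annotated transcripts. Of the 22 detected genes, 17 had 2 or more annotated transcripts. The transcript with the largest share of the gene's TPM was the same in both libraries for 11 of the 17 (64.7%), against 89.4% of the 10038 genes with the same criteria. It differed for Spry1, Fgf7, Fgf8, Fgf11, Fgf13 and Spred2. For none of these 6 were the credibility intervals of the 2 leading transcripts apart in both libraries. Ranked by expected counts, which do not correct for transcript length, it was the same for 15 of 17, with Fgf8 and Spry1 as the exceptions.

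Spry1 had the widest swing between libraries among these 6. Spry1-203 held 77.2% of its TPM in replicate 1 and 23.1% in replicate 2, on 364.7 and 85.1 counts. Spry1-201 held 17.0% and 70.6%, on 81.1 and 262.8 counts. Their intervals were apart in replicate 1, at 4.43 to 8.35 and 0.608 to 4.15 TPM, and overlapped in replicate 2, at 0.178 to 6.56 and 1.89 to 8.26 TPM. All 3 Spry1 transcripts share 1 coding sequence of 313 codons. The first exons of Spry1-201 and Spry1-203 start 11 bases and end 41 bases apart.

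For Spred2 the leading transcripts differ by 1 exon of 81 bases in the coding sequence. Spred2-202, which has it, held 52.6% and 44.6% of the gene's TPM, and Spred2-201, which lacks it, 40.1% and 53.3%. The exon (chr11:20001009-20001089, plus strand, GRCm38) is shown in capitals, because it is what sets their coding sequences apart, with 15 coding bases on each side.
Spred2-202 cassette exon: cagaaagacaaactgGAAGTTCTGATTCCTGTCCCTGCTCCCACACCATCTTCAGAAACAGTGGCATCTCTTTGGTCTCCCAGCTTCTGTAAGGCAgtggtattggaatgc

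The transcripts code for 437 codons with the exon and 410 without it. They also differ outside the coding sequence, with whole lengths of 4449 and 2852 nt. Their intervals overlapped in both libraries, at 3.37 to 4.49 and 2.19 to 3.72 TPM in replicate 1 and 2.84 to 4.20 and 3.13 to 5.18 in replicate 2, so their order was not resolved in either.

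Fgf7 was led in replicate 1 by Fgf7-203, a transcript of 853 nt that is annotated without a coding sequence. It held 63.7% of the gene's TPM there and 35.2% in replicate 2, on 57.4 and 32.9 counts. The coding transcripts Fgf7-201 and Fgf7-202, which share 1 coding sequence of 194 codons, held 25.7% and 10.6% in replicate 1 and 46.0% and 18.8% in replicate 2. Fgf7-201 rested on 79.0 and 146.9 counts. The coding transcripts had higher estimates in replicate 2 and the noncoding one a lower estimate, but the intervals of each overlapped between libraries. They were 2.39 to 4.76 and 1.40 to 4.16 TPM for Fgf7-203, and 0.738 to 1.99 and 1.97 to 4.45 for Fgf7-201.

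Among the other ligands, Fgf9-201, with the full 208 codons, led Fgf9 in both libraries at 67.0% and 68.8%. Fgf9-203 held 26.0% ± 4.31 (SD, n = 2). Its model in GENCODE M21, with 91 codons, is 3593 nt long, against 3210 nt in the deposited table, so the codons may not be those of the quantified model. Fgf18-201 of 207 codons led Fgf18 at 68.9% and 100% of TPM, while the short Fgf18-202 of 98 codons held 31.1% in replicate 1 and was at 0 in replicate 2. Fgf10-201 held 98.3% and 100%, and Fgf2-201 92.4% and 100%. Fgf8, on 35 and 20 counts in all, was led by Fgf8-206 at 29.1% in replicate 1 and by Fgf8-201 at 67.2% in replicate 2. Fgf11 was split between Fgf11-201 (52.6% and 40.4%) and Fgf11-202 (47.4% and 59.6%), which has 84 more coding bases.

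The feedback genes with a steady leading transcript were Spred1 (Spred1-201, 95.2% and 91.8%), Flrt3 (Flrt3-202, 82.3% and 88.7%), Flrt2 (Flrt2-201, 65.2% and 72.2%), Etv5 (Etv5-201, 100% in both), Etv1 (Etv1-201, 40.0% and 58.5%), Etv4 (Etv4-202, 31.1% and 35.3%) and Spred3 (Spred3-201, 63.0% and 57.5%). The transcripts of Flrt2 share 1 coding sequence, as do the 2 coding ones of Flrt3. Transcripts annotated without a coding sequence took 37.3% and 35.2% of the Etv4 level and 37.0% and 42.5% of the Spred3 level. For Spred3 that was 1 transcript with a retained intron.

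**Figure D4:**
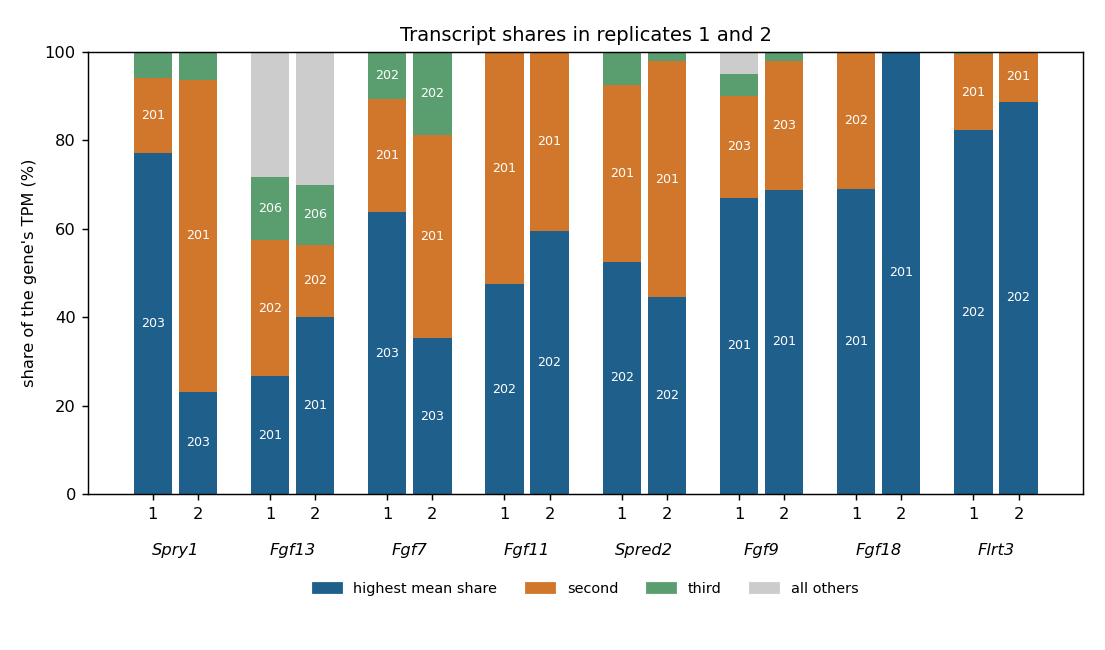
Share of the gene's TPM held by each transcript in replicates 1 and 2 for 8 genes, with numbers inside the bars for the transcript names. The leading colour changes between replicates for Spry1, Fgf13, Fgf7, Fgf11 and Spred2, and stays for Fgf9, Fgf18 and Flrt3.

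Several of these genes share a stretch of chromosome. Fgf3, Fgf4 and Fgf15 lie in 1 row on chromosome 7, with 2.93 kb between the first 2 and 31.3 kb between Fgf4 and Fgf15, and none was detected. Fgf6 and Fgf23 lie 44.7 kb apart on chromosome 6, and neither was detected. Fgf2 and Spry1 lie 229.8 kb apart on chromosome 3, with 1 protein-coding gene between them. Spry4 and Fgf1 lie 237.3 kb apart on chromosome 18, with 0 between them. Each of these 2 pairs holds a feedback gene near 8 to 10 TPM and a low ligand. Another gene overlapped 17 of the 35, on the opposite strand for 15 and with a protein-coding gene there for 8. The share of all genes with such overlaps was not computed, so these counts cannot be set against a background. The sources used here do not say whether the counting used strand, and without strand the reads of overlapping exons cannot be told apart. Fgf2 overlaps Nudt6 (5.18 and 6.22 TPM), Fgf20 overlaps Micu3 (11.3 and 12.3 TPM), Fgf22 overlaps Rnf126 (65.0 and 54.3 TPM) and Spred3 overlaps Ggn (0.35 and 0.99 TPM). The first 3 partners were higher than the Fgf gene beside them.

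The rest of the Fgf pathway was mostly present. Of 67 further genes in 5 lists, 57 were detected, beside 13078 of all 21474 protein-coding genes (60.9%). The median of the 67 was 12.8 TPM, against 4.68 over all protein-coding genes and 18.9 over the detected ones. The receptors Fgfr2 (144.7 TPM, mean of 2 libraries), Fgfr1 (121.7) and Fgfr3 (21.1) were above every one of the 22 Fgf genes. The co-receptors Klb (0.04 and 0.11 TPM) and Kl (0.04 and 0.01 TPM), which the endocrine Fgfs need, were under 1 TPM in both libraries. Both secreted Fgf-binding proteins were detected, Fgfbp1 at 10.4 TPM and Fgfbp3 at 6.25.

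All 19 adaptors and kinases between receptor and ERK were detected, with a median of 42.0 TPM. The highest was Map2k2 (153.5 TPM), which codes for a kinase of ERK. Of 30 other feedback regulators and target genes 28 were detected, with a median of 13.5 TPM, led by Ccnd1 (97.2), Myc (67.5) and Pea15a (61.9). The list of sodium channels and partners of the Fgf11 subfamily was low, with 3 of 9 detected and a median of 0.845 TPM. Its highest genes were Scn8a (3.15 TPM), the scaffold gene Mapk8ip2 (3.06) and Scn3a (1.68), all below Fgf13. Scn2a, Scn4a and Scn10a were under 1 TPM in both libraries.

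Between libraries 57 of the 67 genes had a mean count of 100 or more, and 3 of them were past 1.5-fold. Of all 12730 genes with that count, 405 were past it (3.18%). Scn9a was 2.02-fold higher in replicate 2, on 79.2 and 130.6 counts, and Fgfrl1, a receptor without a kinase domain, was 1.66-fold higher there. Fgfbp3 was 1.53-fold higher in replicate 1.

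**Figure D5:**
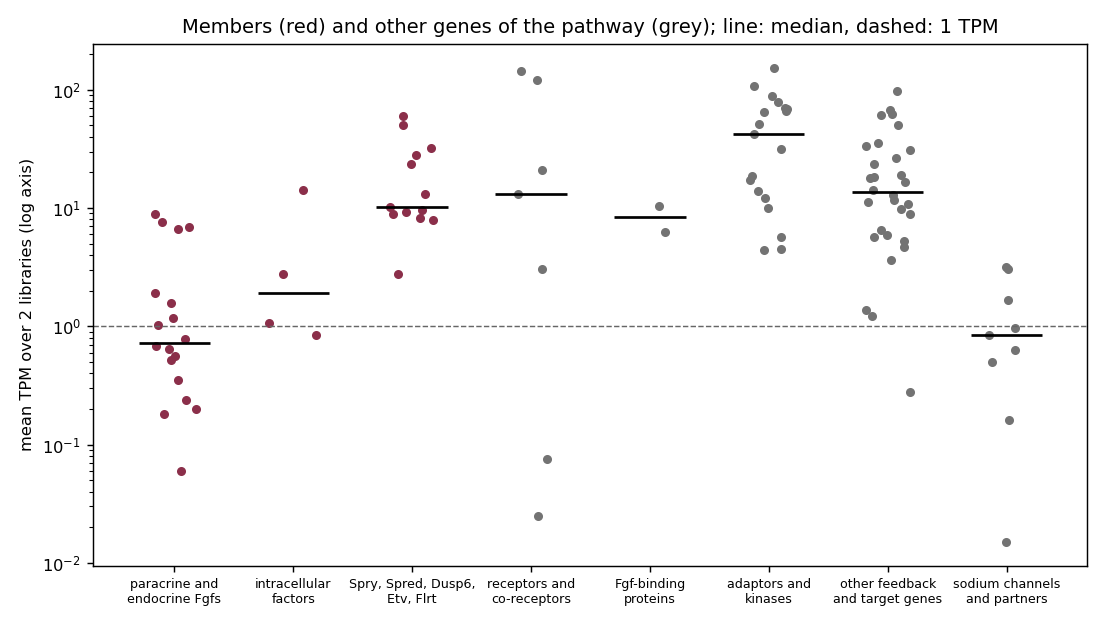
Mean TPM over the 2 libraries on a log axis for the 35 genes (red, in 3 groups) and for 67 other genes of the pathway (grey, in 5 lists); black lines are medians and the dashed line marks 1 TPM. The median of the adaptors and kinases is 42.0 TPM, and that of the sodium channels and partners is 0.845.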

How the data were processed

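Gene and transcript tables were deposited for both libraries, on assembly mm10 per the labels and GENCODE annotation M4 per the deposited notes. The aligner, the quantifier and the strand setting are not given in the sources used here. RNA over 200 nt was extracted with mirVana, 10 ng went into each library, and the labels link the manual of the SMARTer Ultra Low kit. The deposited expected counts and posterior mean counts are the authors' estimated reads per feature. The deposited TPM values sum to 1000000 over the 69691 rows of a gene table, spike-ins among them, and the deposited FPKM values are scaled by length and library total. The deposited upper credibility bounds are a signal in TPM or FPKM, the posterior standard deviations that the authors deposited were treated as a score, and the deposited isoform percent columns were not used. Spike-ins took 6.27% and 4.45% of the counts (13.4% and 9.68% of TPM) and stayed out of library sizes.

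Symbols and coordinates came from GENCODE M21 (GRCm38, the assembly of mm10) by gene identifier, and gene models can differ from M4. Promoter windows came from RefSeq on GRCm38.p6. Expected counts were rounded for TMM scaling with edgeR 4.0.16 and, as an alternative, DESeq2 1.42.0 size factors (R 4.3.3), and ratios used a prior count of 1. Intervals came from scipy 1.17.1 (Python 3.11.15). The ratio step was tested on simulated data. All 36 listed genes are named. Of the pathway lists the text names the 3 highest genes of each, receptor and channel genes under 1 TPM in both libraries and genes past 2-fold, and of the marker lists it names the highest gene. Some genes that this rule takes are not reported here. Other genes were named after their values were seen. The genes, lists and rules were chosen with earlier results of these data known. Alternatives were other thresholds, units, scalings, minimum counts and single libraries.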

Additional observations from a re-analysis of the deposited data

How the results depend on the processing

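The number of the 35 genes past 1.5-fold between libraries depended on the settings: it was 1 as reported, 2 with gene-row totals in place of TMM (Fgf9 added, log2 ratio 0.59), 5 with a minimum mean count of 20 (Fgf1, Fgf3, Fgf12 and Fgf17 added), 11 with no minimum count and 0 at 2-fold. The 22 detected genes became 17 to 27 under the other thresholds and units, 23 with the posterior mean TPM (added after the data were seen), 24 without replicate 1 and 23 without replicate 2. Pathway genes detected ranged from 47 to 62, and were 60 without replicate 1 and 57 without replicate 2. Pairs apart were 24, with 21 where a ratio over 3 SD was asked, 24 without replicate 1 and 25 without replicate 2. The same leading transcript was found for 15 of 17 genes by expected counts or posterior mean counts and for 9 of 13 at 5 TPM or more. Rescaling TPM over gene rows moved the level of 16 of the 35 genes by more than the SD between libraries, and the posterior mean moved 8. No paired analysis was possible because both libraries belong to 1 group. For the fold between libraries and the leading transcript no library could be left out, since each side is 1 library. With 2 libraries an SD rests on 2 values, and genes under about 1 TPM rest on few reads.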
